A study of Mus musculus with 45 samples.

Results

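Sphingosine-1-phosphate (S1P) export and signalling was followed through 10 genes in translating ribosome affinity purification (TRAP) RNASeq libraries from the kidneys of 45 mice. The 10 genes were taken by name from the 55401 genes counted. They are the transporters Spns1 and Spns2, the sphingosine kinases Sphk1 and Sphk2, the S1P lyase Sgpl1, the S1P phosphatase Sgpp1 and the receptors S1pr1, S1pr2, S1pr3 and S1pr5. Spns2 was chosen by its low counts and TPM in the Pkd1KO mice of these same libraries, and the other members by their role beside it, so the values of Spns2 in the comparisons of Pkd1KO with the other genotypes are given as a description with no test. 9 of the 10 genes passed the filter on low counts in both sexes, and S1pr5 did not.

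S1P is a lipid made inside cells when a sphingosine kinase phosphorylates sphingosine. It can be cleaved irreversibly by the lyase, returned to sphingosine by a phosphatase, or carried out of the cell by a transporter and bind G protein-coupled receptors on the same or neighbouring cells. SPNS2 is the exporter best known for supplying lymph with S1P, which lymphocytes read through S1PR1 when they leave lymphoid organs, and S1P from endothelium also maintains vessel walls. SPNS1, in the same transporter family, carries lysophospholipids out of lysosomes.

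All mice carried the doxycycline-responsive pair Pax8rtTA and TetOCre together with R26Rpl10a, 1 copy of each, so that ribosomes tagged with L10a-EGFP were made only where Cre had acted, in nephron epithelium that expresses Pax8rtTA. Noncystic mice were Pkd1fl/+, carrying a single floxed copy of Pkd1, and are called WT in the sample labels. Pkd1KO mice were Pkd1fl/fl, and Pkd1KO+ciliaKO mice were Pkd1fl/fl and Kif3afl/fl, where Kif3a encodes a kinesin subunit needed to build cilia. Doxycycline was given to every group from postnatal day 28 to 42 and kidneys were taken on day 49, at 7 weeks. The study describes deletion of the floxed Pkd1 allele as incomplete. There were 8 noncystic, 7 Pkd1KO and 9 Pkd1KO+ciliaKO males, and 7, 8 and 6 females in the same order.

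Between 80874556 and 132958186 fragments were counted per mouse, with a median of 103070359. Levels are given as CPM, the counts of a gene relative to the library's total over the protein-coding genes tested, scaled with TMM factors, with each mouse as 1 replicate. The summed level of 6 proximal tubule markers lay between 6575 and 15653 CPM over all mice, and that of 10 endothelial markers between 103 and 580 CPM. Kif3a was between 4.90 and 8.47 CPM in 14 of the 15 Pkd1KO+ciliaKO mice and between 13.8 and 29.2 CPM in 29 of the 30 other mice. The library labelled noncystic female replicate 5 had 6.69 CPM and the library labelled Pkd1KO+ciliaKO female replicate 6 had 20.7 CPM, so both went against their labels. Pkd1, counted over the whole gene, ran from 33.2 to 49.8 CPM in Pkd1KO males against 36.3 to 84.9 CPM in noncystic males, and from 33.4 to 60.3 CPM against 45.2 to 63.5 CPM in females, with overlap in both sexes. On the first principal component 4 male libraries, noncystic replicate 3, Pkd1KO replicate 4 and Pkd1KO+ciliaKO replicates 6 and 8, lay among or next to the females. Calls that these 6 libraries changed are given with and without them.

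Per unit of transcript length, in the deposited TPM values, the members fell into an upper set of Spns2, Sphk2, Sgpl1, Sgpp1 and Spns1 and a lower set of S1pr3, Sphk1, S1pr1 and S1pr2. In noncystic females Spns2 was the member with the highest level, at 88.8 ± 8.71 TPM (SD, n = 7), with no overlap with Sphk2, the next, at 41.2 ± 5.91 TPM. In noncystic males Sgpp1 at 46.9 ± 5.99 TPM, Spns2 at 44.1 ± 6.10 TPM and Sphk2 at 41.4 ± 3.74 TPM (SD, n = 8) overlapped with one another, and Sphk2 did not overlap with Sgpl1, the next. In Pkd1KO mice Spns2 was the fifth member, at 12.6 ± 6.50 TPM in males (SD, n = 7) and 14.6 ± 3.81 TPM in females (SD, n = 8), and overlapped with S1pr3, the sixth. S1pr2 was the lowest of the tested members in every group, with means from 1.10 to 1.74 TPM. The TPM tables of the sexes were normalized separately, so this order holds within a sex.

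Spns2 was lower in every Pkd1KO mouse than in every noncystic and every Pkd1KO+ciliaKO mouse of the same sex. In males its lowest, median and highest levels were 50.6, 60.9 and 69.3 CPM in noncystic mice. They were 10.2, 13.5 and 28.8 CPM in Pkd1KO males and 37.2, 58.2 and 80.0 CPM in Pkd1KO+ciliaKO males. The Pkd1KO males split into replicates 3 and 4, at 28.8 and 27.0 CPM, and the other 5, at 16.2 CPM or less. In females the lowest, median and highest levels were 94.6, 109.9 and 131 CPM in noncystic mice. They were 11.4, 16.9 and 25.6 CPM in Pkd1KO females and 45.4, 72.1 and 97.8 CPM in Pkd1KO+ciliaKO females. The Pkd1KO ranges lay below those of both other genotypes in both sexes, as the plot of Spns2 by mouse shows.

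**Figure D1:**
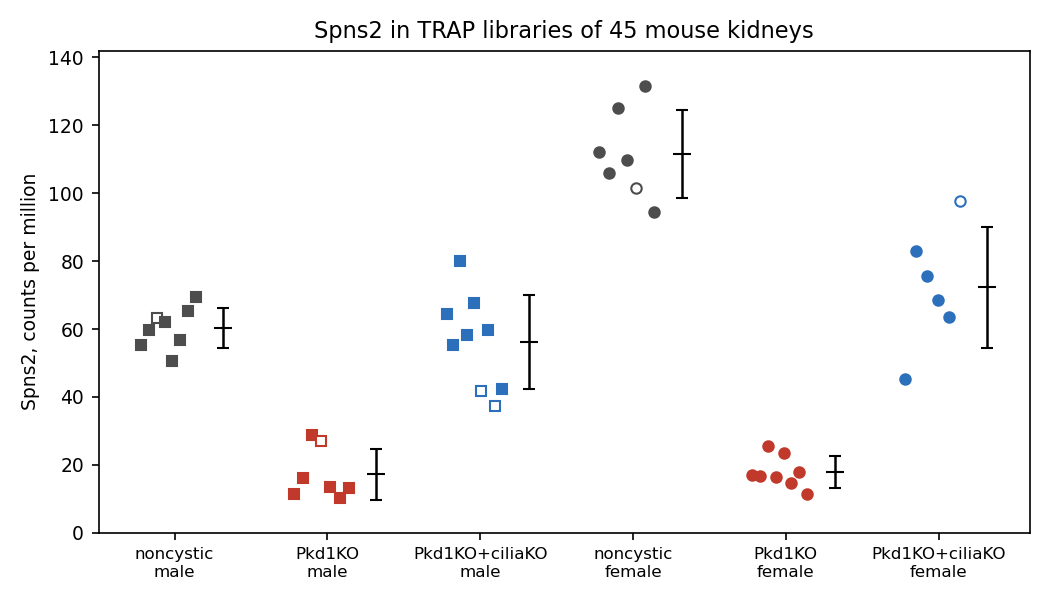
Spns2 level in CPM for each of 45 mice by genotype and sex (squares males, circles females), with the mean and SD of each group as a bar beside the points; open symbols are the 6 libraries that went against their label for Kif3a or lay among or next to the other sex. All Pkd1KO mice sit at 28.8 CPM or less and all other mice at 37.2 CPM or more.

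As a description, Spns2 differed between Pkd1KO and noncystic males by a log2 fold change of -1.81 ± 0.21 (SE), a mean 3.50-fold lower. Between Pkd1KO and Pkd1KO+ciliaKO males it differed by -1.71 ± 0.23, or 3.27-fold. In females the same differences were -2.64 ± 0.14, or 6.23-fold, and -2.02 ± 0.18, or 4.05-fold. Both Pkd1KO comparisons of a sex share the Pkd1KO mice. Without Pkd1KO male replicate 4 the male values were -1.95 against noncystic and -1.85 against Pkd1KO+ciliaKO mice. In bulk libraries, fewer cells of a type and less RNA per cell cannot be told apart.

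Marker lists of the cells these libraries could hold moved with Pkd1KO to different degrees, and none separated Pkd1KO from noncystic mice without overlap. The 7 principal cell markers summed to 319 to 755 CPM in Pkd1KO males and 392.3 to 668 CPM in noncystic males, and to 598 to 1263 CPM against 524 to 819 CPM in females. The 10 endothelial markers summed to 132 to 580 CPM in Pkd1KO males against 103 to 340 CPM in noncystic males, and to 108 to 224 CPM against 133 to 254 CPM in females. The 5 thick ascending limb markers had a median sum of 2156 CPM in Pkd1KO males and 3781 CPM in noncystic males, and of 3825 and 4149 CPM in females. In males 6 of the 7 Pkd1KO mice, at 2122 to 2664 CPM, lay below every noncystic mouse, at 2954 CPM or more, and replicate 2 was at 3773 CPM. The 7 macrophage markers summed to 98.1 to 317 CPM in Pkd1KO males against 71.3 to 101 CPM in noncystic males, with 6 of 7 Pkd1KO mice above every noncystic mouse, and to 63.7 to 120 CPM against 59.4 to 88.6 CPM in females. In Pkd1KO+ciliaKO mice the thick ascending limb sum had a median of 3833 CPM in males and 5086 CPM in females. Its Pkd1KO median was the lowest of the 3 genotypes in both sexes, as for Spns2, but with overlap. The other median sums of Pkd1KO+ciliaKO males and females were 73.9 and 61.6 CPM for macrophage markers. They were 534 and 810 CPM for principal cell and 189 and 211 CPM for endothelial markers. The part of these cells in the level of Spns2 was not tested.

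In Pkd1KO+ciliaKO mice Spns2 overlapped with the noncystic level in males and was lower in females. This comparison asks how the double mutant stands against noncystic mice, and it was not used to choose Spns2. In males the difference between Pkd1KO+ciliaKO and noncystic mice was -0.10 ± 0.13 and did not pass the threshold of an adjusted p of 0.05 (adjusted p = 0.698, edgeR quasi-likelihood test with Benjamini-Hochberg adjustment over all genes tested). In females Spns2 fell by 0.63 ± 0.14 on the log2 scale, or 1.54-fold (adjusted p = 0.0342), against 2.54% of all genes called in that comparison. 5 of the 6 Pkd1KO+ciliaKO females lay below every noncystic female. The exception at 97.8 CPM was the library labelled replicate 6, whose Kif3a was not low. Without that library and noncystic female replicate 5 the difference was -0.75 ± 0.13 (adjusted p = 0.00747), the highest Pkd1KO+ciliaKO female was at 83.1 CPM and the lowest noncystic female at 94.6 CPM. The female call was lost without any single mouse among noncystic replicates 2, 3, 6 and 7 and Pkd1KO+ciliaKO replicates 2, 3, 4 and 5, with values from -0.72 to -0.52 over all 13 fits and an adjusted p of up to 0.078.

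Spns2 was higher in noncystic females than in noncystic males. All 8 noncystic males, at 69.3 CPM or less, lay below all 7 noncystic females, at 94.6 CPM or more. The male minus female difference was -0.89 ± 0.18 on the log2 scale (adjusted p = 0.0002), against 27.4% of genes called. In Pkd1KO mice it was -0.06 ± 0.18 (adjusted p = 0.846) and in Pkd1KO+ciliaKO mice -0.36 ± 0.18 (adjusted p = 0.163), where 30.6% and 19.4% of genes were called. The interaction of sex and genotype, which tests whether a genotype difference in Spns2 differed between sexes, was 0.83 ± 0.26 for Pkd1KO against noncystic mice (adjusted p = 0.276), 0.31 ± 0.26 for Pkd1KO against Pkd1KO+ciliaKO mice (adjusted p = 0.81) and 0.53 ± 0.26 for Pkd1KO+ciliaKO against noncystic mice (adjusted p = 0.891). None of these passed the threshold, although the first and the last had unadjusted p values of 0.00221 and 0.0475. The difference between sexes in Pkd1KO mice and the interactions that hold Pkd1KO mice use the Pkd1KO values by which Spns2 was chosen. For Spns2 they are therefore read as a description.

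Spns3, a paralog of Spns2 on the wider list of sphingolipid genes below, was lower in Pkd1KO mice in all 4 comparisons with the other genotypes. Its 3′ end lies 5015 bases upstream of the 5′ end of Spns2, with Spns2 at chr11:72451638-72489904 and Spns3 at chr11:72494919-72550506, both on the minus strand of GRCm38. Its levels were low. They ran from 0.923 to 2.79 CPM in noncystic, 0.145 to 0.729 CPM in Pkd1KO and 0.882 to 1.71 CPM in Pkd1KO+ciliaKO males, from 14 to 275 fragments per mouse. In females they ran from 1.25 to 4.14 CPM, 0.0538 to 0.458 CPM and 0.413 to 1.75 CPM in the same order, from 7 to 399 fragments. Pkd1KO males lay below all other males, and Pkd1KO females below all noncystic females but overlapping with Pkd1KO+ciliaKO female replicate 1, at 0.413 CPM. Against noncystic mice Spns3 fell by 2.32 ± 0.37 on the log2 scale in males (adjusted p = 0.00128) and by 2.68 ± 0.32 in females (adjusted p = 0.000155). Against Pkd1KO+ciliaKO mice it fell by 1.98 ± 0.32 in males (adjusted p = 0.00169) and by 1.91 ± 0.35 in females (adjusted p = 0.00333). Genes called lower made up 2.25%, 1.32%, 1.78% and 4.65% of those tested in these 4 comparisons. On the log2(TPM + 1) scale, where the added 1 is as large as the level of Spns3, the 4 values shrank to between -0.89 and -0.58 and stayed called.

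Among 15827 other genes, Spns3 had the level most like that of Spns2 over the 45 mice, with a Pearson r of 0.93 between log2 CPM values centred on the mean of each sex. With values centred on the mean of each of the 6 groups r was 0.68. Pkd1KO males 3 and 4, the highest of their group in Spns2, were the highest in Spns3 too, at 0.633 and 0.729 CPM. These points share library and depth, and r is a description. The plot of Spns3 against Spns2 shows both levels for each mouse.

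**Figure D2:**
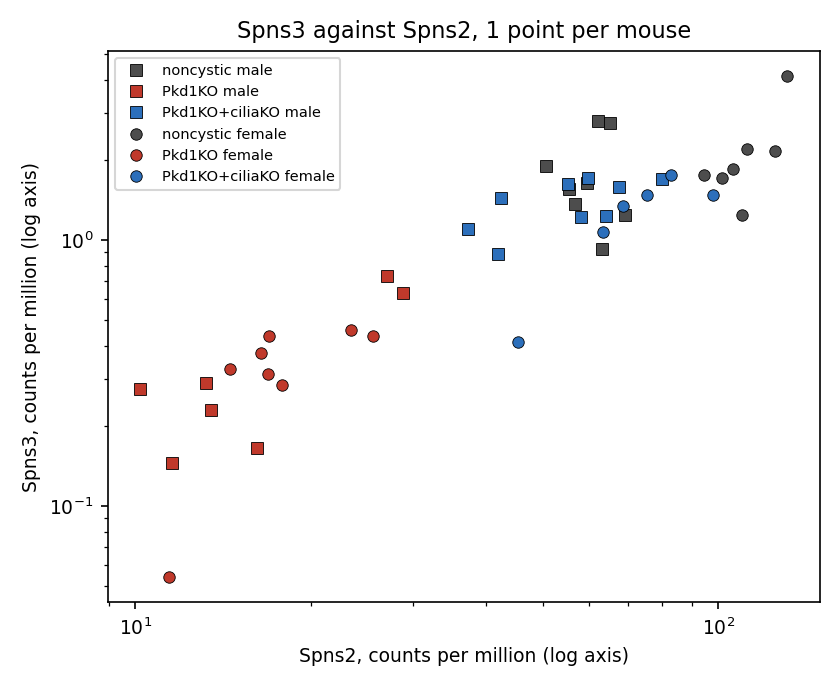
Spns3 against Spns2 in CPM, 1 point per mouse, both axes logarithmic, coloured by genotype with squares for males and circles for females. The Pkd1KO mice lie together at the low end of both axes, and Pkd1KO+ciliaKO female replicate 1, at 45.4 CPM of Spns2 and 0.413 CPM of Spns3, is the mouse of another genotype nearest to them.

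Sequence is shown for both paralogs because reads shared between them could tie their counts together. The most similar ungapped stretch of 60 coding bases, identical at 48, runs across the junction of exons 2 and 3 in each gene. In Spns2 it spans chr11:72463733-72474717 and in Spns3 chr11:72540505-72545900, introns included, and the coding bases are read 5′ to 3′ from the GENCODE vM21 transcripts with the differing bases in capitals.
Spns2: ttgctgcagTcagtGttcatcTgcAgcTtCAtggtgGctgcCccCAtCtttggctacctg
Spns3: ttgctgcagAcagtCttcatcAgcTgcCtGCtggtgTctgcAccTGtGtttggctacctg
The longest run of identical bases between the coding sequences, of 1647 and 1542 bases, was 14 bases. Between Spns1 and Spns2 it was also 14 bases, and over the 10 pairs of S1P receptor genes, S1pr4 included, it was 12 to 19 bases. Counts were taken over all exons, 4083 bases in Spns2 and 5508 bases in Spns3, and the untranslated parts were not compared. Whether the 2 genes shared reads was not tested.

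Within 500000 bases of Spns2, 18 genes other than Spns3 were tested. Of these, 3 were called in male Pkd1KO against noncystic mice, where 6.3% of all genes were called. In male Pkd1KO against Pkd1KO+ciliaKO mice 1 was called, against 3.77% of all genes. In females 1 was called in Pkd1KO against noncystic and 1 against Pkd1KO+ciliaKO mice, beside 3.34% and 11.7% of all genes. This window was chosen after the values of Spns3 were seen. Of 19 other tested genes within 500000 bases, 4 were called in male Pkd1KO against noncystic mice, 2 against Pkd1KO+ciliaKO mice, and 2 in each of the same comparisons in females, Spns3 counted each time, where 6.3%, 3.77%, 3.34% and 11.7% of all genes were called. Without Spns3 the median log2 fold change of the neighbours lay between -0.12 and 0.00 in these 4 comparisons, and the lowest single value was -0.79, for Ggt6 in males. Ggt6 was lower in Pkd1KO males than in noncystic (adjusted p = 0.00355) and Pkd1KO+ciliaKO males (-0.53, adjusted p = 0.0131). Smtnl2 was lower in Pkd1KO females than in noncystic (-0.39, adjusted p = 0.017) and Pkd1KO+ciliaKO females (-0.41, adjusted p = 0.0121), and in Pkd1KO than in noncystic males (-0.32, adjusted p = 0.0483). The other neighbour called in these comparisons was Pimreg, higher by 2.27 in Pkd1KO than in noncystic males (adjusted p = 0.00515). Mybbp1a, on the opposite strand, overlaps an exon of Spns2. It ranged from 55.0 to 89.4 CPM over all mice, with log2 fold changes from -0.23 to 0.04 and no call in the 6 genotype comparisons. The strand setting of the counting is not given in the sources used here.

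Spns1, the lysosomal relative of Spns2, did not follow it. Its lowest, median and highest levels were 27.3, 34.4 and 37.5 CPM in noncystic, 26.3, 32.8 and 38.4 CPM in Pkd1KO and 21.03, 26.6 and 30.6 CPM in Pkd1KO+ciliaKO males. In females they were 20.3, 23.4 and 30.6 CPM, 20.8, 24.1 and 29.8 CPM, and 17.7, 21.9 and 26.3 CPM. Pkd1KO+ciliaKO males were low, with 5 of 9 below every noncystic male. Spns1 was lower in Pkd1KO+ciliaKO than in noncystic males by 0.41 ± 0.08 on the log2 scale (adjusted p = 0.00521), and higher in Pkd1KO than in Pkd1KO+ciliaKO males by 0.35 ± 0.09 (adjusted p = 0.0372), while Pkd1KO and noncystic males differed by -0.06 ± 0.08 (adjusted p = 0.727). The call against Pkd1KO+ciliaKO males was lost in 10 of 16 fits that left out a mouse (Pkd1KO replicates 1, 2, 3, 5 and 7 and Pkd1KO+ciliaKO replicates 1, 2, 6, 7 and 8), with values from 0.31 to 0.40, and on the log2(TPM + 1) scale, at 0.22 (adjusted p = 0.0551). None of the female differences in Spns1 passed the threshold, at 0.06 ± 0.08, 0.17 ± 0.09 and -0.11 ± 0.10 for Pkd1KO against noncystic, Pkd1KO against Pkd1KO+ciliaKO and Pkd1KO+ciliaKO against noncystic mice. Spns1 was higher in males than in females in noncystic mice, by 0.52 ± 0.09 (adjusted p = 3.02e-05), and in Pkd1KO mice, by 0.40 ± 0.09 (adjusted p = 0.000742). In Pkd1KO+ciliaKO mice the difference was 0.22 ± 0.09 (adjusted p = 0.1), and 0.29 without the 4 male libraries (adjusted p = 0.00875).

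Of the sphingosine kinases, which make S1P, Sphk2 was lower in Pkd1KO+ciliaKO than in noncystic males. Sphk1 passed in edgeR, with all libraries and no term for the replicate number, in no comparison of genotypes or of sexes. Sphk2, the kinase found in nucleus and mitochondria, ranged from 52.8 to 60.6 CPM in noncystic males with a median of 58.1 CPM, and from 41.8 to 48.97 CPM in Pkd1KO+ciliaKO males with a median of 46.0 CPM. These CPM ranges did not overlap, and Pkd1KO males, at 44.4 to 60.3 CPM, spanned both. In TPM the ranges overlapped, at 38.1 to 49.4 TPM in noncystic and 30.6 to 40.1 TPM in Pkd1KO+ciliaKO males. The difference between Pkd1KO+ciliaKO and noncystic males was -0.35 ± 0.05 (adjusted p = 0.000205). Spns1 and Sphk2 were the 2 members other than Spns2 called of 8 tested there, against 8.89% of all genes. Pkd1KO males differed in Sphk2 from noncystic males by -0.13 (adjusted p = 0.285) and from Pkd1KO+ciliaKO males by 0.22 (adjusted p = 0.0931). The latter passed in DESeq2 (adjusted p = 0.0375), limma voom (adjusted p = 0.0327) and the fit of all 3 genotypes (adjusted p = 0.0286). In females Sphk2 differed by -0.22 ± 0.09 for Pkd1KO against noncystic mice and by -0.02 ± 0.10 for Pkd1KO against Pkd1KO+ciliaKO mice. For Pkd1KO+ciliaKO against noncystic females it differed by -0.21 ± 0.12. The adjusted p values were 0.238, 0.929 and 0.353. Pkd1KO males exceeded Pkd1KO females in Sphk2 by 0.22 ± 0.09 (adjusted p = 0.0422), a call lost in 8 fits that left out Pkd1KO male replicate 2, 3, 5 or 6 or Pkd1KO female replicate 1, 3, 4 or 7, where the lowest value was 0.18. Exons of Sphk2 overlap those of Dbp and Rpl18 on the other strand.

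Sphk1, the cytosolic kinase, was low in all groups, at 5.65 to 14.8 CPM in males and 7.38 to 20.6 CPM in females. The genotype differences lay between -0.36 ± 0.17, for female Pkd1KO against Pkd1KO+ciliaKO mice (adjusted p = 0.186), and 0.37 ± 0.15, for male Pkd1KO+ciliaKO against noncystic mice (adjusted p = 0.13). Males minus females gave -0.43 ± 0.18 in noncystic mice (adjusted p = 0.0658) and -0.38 ± 0.18 in Pkd1KO+ciliaKO mice (adjusted p = 0.137). Without the 4 male libraries these were -0.51 (adjusted p = 0.0152) and -0.53 (adjusted p = 0.0148), and both passed.

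Sgpl1, the lyase that ends S1P signalling by cleaving it, was higher in Pkd1KO than in noncystic mice of both sexes. In males its lowest, median and highest levels were 51.2, 60.3 and 69.5 CPM in noncystic, 66.6, 72.1 and 81.1 CPM in Pkd1KO and 58.5, 64.0 and 69.6 CPM in Pkd1KO+ciliaKO mice. In females they were 58.7, 63.9 and 68.9 CPM, 68.4, 78.1 and 87.2 CPM, and 65.6, 72.5 and 81.3 CPM. In males 6 of 7 Pkd1KO mice, and in females 7 of 8, lay above every noncystic mouse. Sgpl1 was higher in Pkd1KO than in noncystic mice by 0.30 ± 0.07 in males (adjusted p = 0.0167) and by 0.28 ± 0.05 in females (adjusted p = 0.00712), or 1.23-fold and 1.21-fold. It was the only member other than Spns2 called of 8 tested in either comparison, against 6.3% and 3.34% of all genes. Against Pkd1KO+ciliaKO mice the differences were 0.20 ± 0.06 in males (adjusted p = 0.0609) and 0.10 ± 0.06 in females (adjusted p = 0.292). The male difference from Pkd1KO+ciliaKO mice passed in DESeq2 (adjusted p = 0.0126) and voom (adjusted p = 0.0467). The male call against noncystic mice was lost on the log2(TPM + 1) scale, at 0.26 (adjusted p = 0.0732). Pkd1KO+ciliaKO and noncystic mice differed in Sgpl1 by 0.10 in males (adjusted p = 0.354) and by 0.17 in females (adjusted p = 0.109). On the log2(TPM + 1) scale this female difference passed, at 0.29 (adjusted p = 0.02). In Pkd1KO+ciliaKO mice, Sgpl1 was lower in males than in females by 0.17 ± 0.06 (adjusted p = 0.0457), and that call was lost in 10 of 45 fits that left out a mouse (Pkd1KO+ciliaKO male replicates 2, 5, 6, 7, 8 and 9 and female replicates 1, 2, 3 and 4), with values from -0.20 to -0.14, and without the 4 male libraries, at -0.15.

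Sgpp1, which removes the phosphate of S1P at the endoplasmic reticulum, differed between sexes and passed in no comparison of genotypes. The genotype differences lay between -0.12 ± 0.18 and 0.06 ± 0.16 in males and between -0.06 ± 0.05 and 0.03 ± 0.05 in females. Females lay between 48.99 and 61.1 CPM in all 3 genotypes. Of the males, 19 lay between 83.4 and 122 CPM and the other 5 between 49.9 and 60.6 CPM, within the female range. Those 5 were noncystic replicate 3, Pkd1KO replicates 3 and 4 and Pkd1KO+ciliaKO replicates 6 and 8, and they include the 4 male libraries that lay among or next to the females. Males exceeded females by 0.69 ± 0.14 in noncystic (adjusted p = 0.000132), 0.64 ± 0.13 in Pkd1KO (adjusted p = 0.000273) and 0.71 ± 0.14 in Pkd1KO+ciliaKO mice (adjusted p = 0.00026). Without the 4 male libraries the values were 0.76, 0.71 and 0.87.

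**Figure D3:**
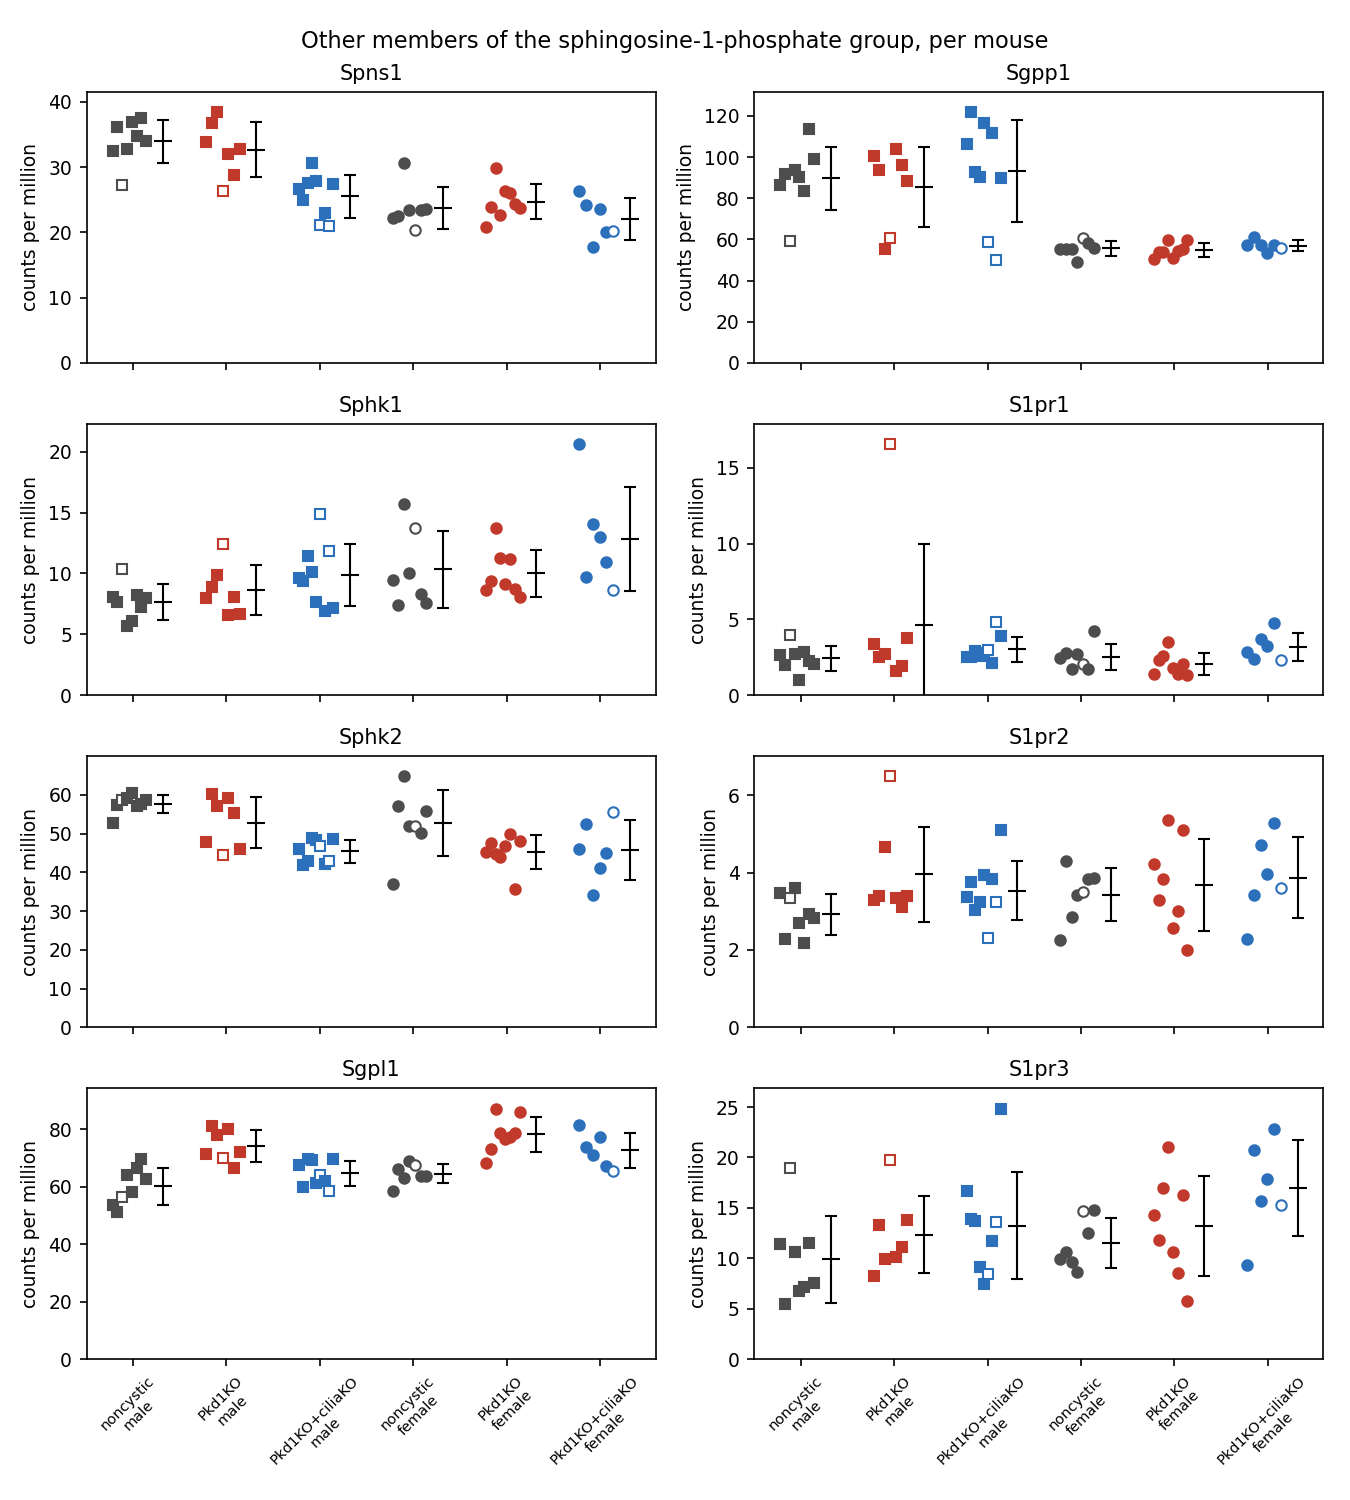
Levels in CPM of the 8 tested members other than Spns2, 1 point per mouse by genotype and sex (squares males, circles females), with the mean and SD of each group beside the points; each panel has its own axis from 0, open symbols are the 6 libraries that went against their label for Kif3a or lay among or next to the other sex, and the lower SD arm of S1pr1 in Pkd1KO males runs off the axis. Sgpl1 lies higher in Pkd1KO than in noncystic mice of both sexes, 5 males have Sgpp1 at 60.6 CPM or less, and 1 Pkd1KO male has S1pr1 at 16.6 CPM.

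The tested receptors, which carry the signal of extracellular S1P into the cell, passed in no comparison of genotypes in edgeR with all libraries. S1pr3 had the highest levels, from 5.47 to 24.8 CPM in males and 5.81 to 22.8 CPM in females. S1pr2 ran from 2.17 to 6.49 CPM in males and 2.00 to 5.36 CPM in females. S1pr1 ran from 1.00 to 4.79 CPM in 44 mice. The largest difference of S1pr3 was 0.55 ± 0.18, for Pkd1KO+ciliaKO against noncystic females (adjusted p = 0.102). It passed in DESeq2 (adjusted p = 0.0364) and limma voom (adjusted p = 0.0322). The largest difference of S1pr2 was 0.44 ± 0.17, for Pkd1KO against noncystic males (adjusted p = 0.149). S1pr1 differed between Pkd1KO and Pkd1KO+ciliaKO females by -0.66 ± 0.23 (adjusted p = 0.0732), which passed in DESeq2, in limma voom and on the log2(TPM + 1) scale, and without Pkd1KO female replicate 4.

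A single mouse set the S1pr1 level of Pkd1KO males. Its values in replicates 1 to 7 were 3.37, 2.51, 2.72, 16.6, 1.57, 1.92 and 3.78 CPM. Replicate 4 lay above all 44 other mice, and the other 6 overlapped with the remaining groups. The difference between Pkd1KO and noncystic males was 0.95 ± 0.45 with this library (adjusted p = 0.226) and 0.13 ± 0.25 without it (adjusted p = 0.857). Males exceeded females in Pkd1KO mice by 1.19 ± 0.33 (adjusted p = 0.00521), and by 0.38 ± 0.24 without it (adjusted p = 0.244). The same library had the highest endothelial sum, 580 CPM, next to 405 CPM in Pkd1KO+ciliaKO male replicate 8 and 340 CPM in noncystic male replicate 3, whose S1pr1 levels were 4.79 and 3.93 CPM. It was also highest in summed markers of macrophages, at 317 CPM, of lymphocytes and NK cells, at 10.4 CPM, of podocytes, at 161 CPM, and of pericytes and smooth muscle, at 582 CPM. The lowest endothelial sum, 103 CPM in noncystic male replicate 5, went with the lowest S1pr1, 1.00 CPM. S1pr1 is a gene of endothelium and lymphocytes as well as other cells, and the part of these cells in its level was not tested.

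**Figure D4:**
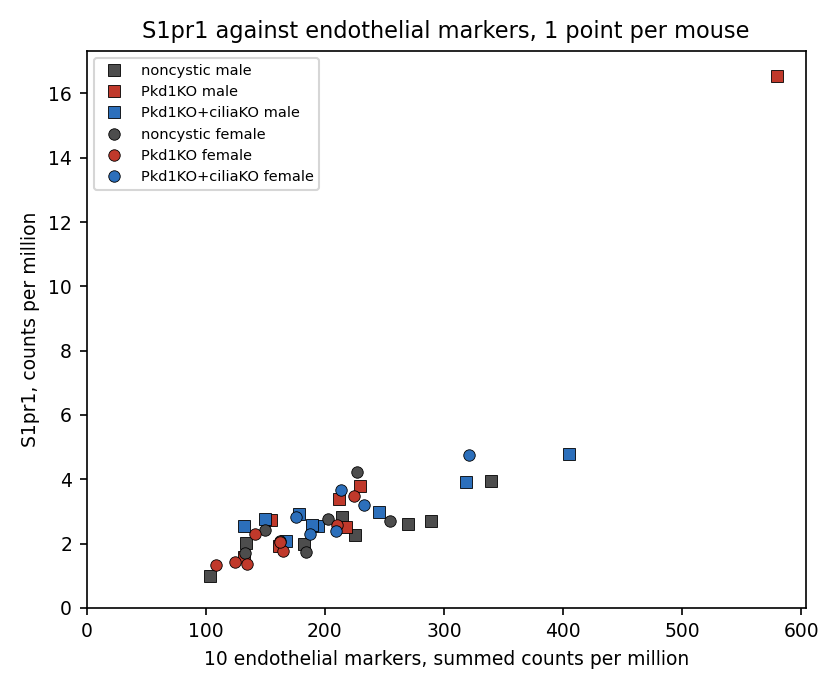
S1pr1 in CPM against the summed CPM of 10 endothelial markers, 1 point per mouse, coloured by genotype with squares for males and circles for females. Pkd1KO male replicate 4 stands apart at 580 CPM of endothelial markers and 16.6 CPM of S1pr1, and the other mice lie at 405 CPM or less and 4.79 CPM or less.

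S1pr5, a receptor best known from natural killer cells and the brain, was close to absent. It had 121 fragments over all 45 mice, 11 at most in a mouse and 0 in 8 mice. 32 mice had 3 fragments or fewer, the level taken as the floor, which is 0.0231 to 0.038 CPM in these libraries. No difference was detectable at this depth. Counting limits of this kind cover counting error only, because single molecules were not tagged.

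The plot of fold changes sets the members side by side. In female Pkd1KO against Pkd1KO+ciliaKO mice edgeR called 0 of the 8 members other than Spns2, where 11.7% of all genes were called, with 1, S1pr1, at an unadjusted p under 0.05, which was also the 1 called by DESeq2. In female Pkd1KO+ciliaKO against noncystic mice edgeR called 0 of the 8, where 2.54% of all genes were called. There 2, S1pr3 and Sgpl1, had an unadjusted p under 0.05, and DESeq2 called 1, S1pr3. In male Pkd1KO against Pkd1KO+ciliaKO mice edgeR called 1, Spns1, against 3.77% of all genes. The share of all genes at an unadjusted p under 0.05, or called by DESeq2, is not given here. The interaction of sex and genotype was called for 0 of 9 members by edgeR in Pkd1KO against noncystic, Pkd1KO against Pkd1KO+ciliaKO and Pkd1KO+ciliaKO against noncystic mice, where 0.0126%, 0.221% and 0.0316% of all genes were called, with 2, 1 and 2 members at an unadjusted p under 0.05 and 0 called by DESeq2 in each.

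**Figure D5:**
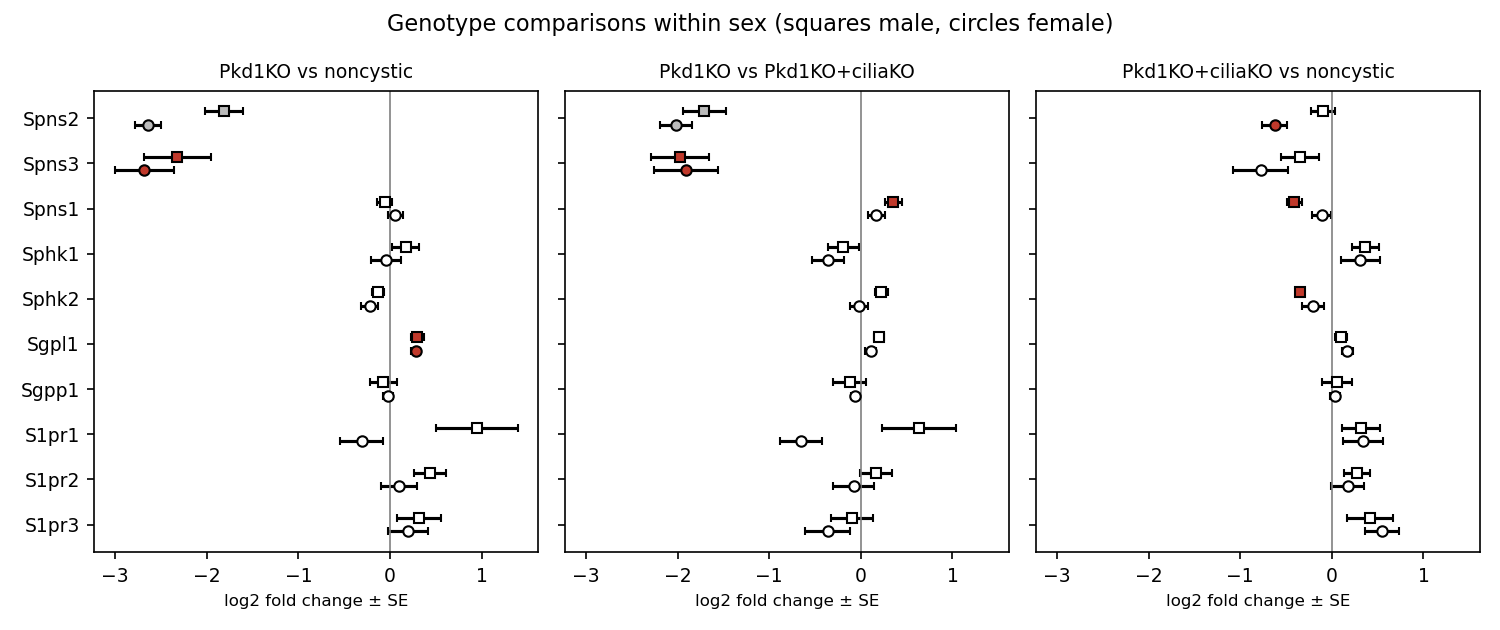
Log2 fold change with its standard error for the 9 tested members and Spns3 in the 3 genotype comparisons, squares males and circles females; red is called by edgeR at an adjusted p of 0.05, white is not called, and grey is Spns2 in the comparisons that chose it, with no test. Spns2 and Spns3 lie at -1.71 or lower in both Pkd1KO comparisons, and no other member is beyond 1 in either direction.

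The wider list held 48 further genes of sphingolipid metabolism and S1P response, of which 47 were tested in each sex and Acer1 was not. Between Pkd1KO and noncystic mice 5 were called in males and 3 in females, against 6.3% and 3.34% of all genes, and the median log2 fold change of the list was 0.02 and 0.04, against -0.01 and 0.00 over all genes. Besides Spns3, both sexes shared higher Sgpp2 and Sgms1. Sgpp2, the other S1P phosphatase, was 22.7 to 38.8 CPM in noncystic and 33.4 to 49.2 CPM in Pkd1KO males, a difference of 0.42 ± 0.11 (adjusted p = 0.0311). In females it was 35.6 to 51.7 CPM and 52.2 to 79.9 CPM with no overlap, a difference of 0.51 ± 0.10 (adjusted p = 0.00719). Pkd1KO and Pkd1KO+ciliaKO mice differed in Sgpp2 by -0.004 in males (adjusted p = 0.988) and 0.16 in females (adjusted p = 0.33). Pkd1KO+ciliaKO females differed from noncystic females by 0.34 (adjusted p = 0.0822), which passed in DESeq2, in limma voom and on the log2(TPM + 1) scale. Sgms1, a sphingomyelin synthase, was higher by 0.30 ± 0.09 in males (adjusted p = 0.046) and 0.25 ± 0.06 in females (adjusted p = 0.0309). Males also had higher Plpp2, a lipid phosphate phosphatase, by 0.27 ± 0.08 (adjusted p = 0.0431), and lower Asah2, the neutral ceramidase. The male calls of Sgpp2, Plpp2 and Sgms1 were each lost in 7 to 12 of 15 fits that left out a mouse, noncystic replicates 1 and 4 and Pkd1KO replicate 5 among them for all 3, with an adjusted p of up to 0.0891, and those of Plpp2 and Sgms1 also without the 4 male libraries (adjusted p = 0.0883 and 0.0628). The female call of Sgms1 was lost in 8 of 15, with an adjusted p of up to 0.0791.

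Apom, the apolipoprotein that carries S1P in blood, was low in Pkd1KO+ciliaKO mice of both sexes. It was 17.6 to 56.8 CPM in noncystic, 27.6 to 64.9 CPM in Pkd1KO and 5.25 to 27.5 CPM in Pkd1KO+ciliaKO males, and 15.6 to 39.8 CPM, 19.9 to 39.6 CPM and 16.3 to 23.6 CPM in females. It was lower in Pkd1KO+ciliaKO than in noncystic mice by 1.25 ± 0.27 in males (adjusted p = 0.00669) and by 0.78 ± 0.16 in females (adjusted p = 0.0283), and higher in Pkd1KO than in Pkd1KO+ciliaKO mice by 1.49 ± 0.26 in males (adjusted p = 0.00362) and by 0.72 ± 0.12 in females (adjusted p = 0.00238). Without the libraries that went against their Kif3a label the female difference from noncystic mice was -0.92 (adjusted p = 0.000157). The call with all libraries was lost on the log2(TPM + 1) scale, at -0.60 (adjusted p = 0.0522), and in 7 of 13 fits that left out 1 mouse, noncystic replicate 2, 3, 6 or 7 or Pkd1KO+ciliaKO replicate 2, 3 or 4, with values from -0.90 to -0.72. The summed proximal tubule markers, of a cell type in which Apom is known to be made, had medians of 14098, 10890 and 9863 CPM in noncystic, Pkd1KO and Pkd1KO+ciliaKO males and 9972, 9643 and 8426 CPM in females, and their part in the level of Apom was not tested.

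Asah1, the lysosomal ceramidase that supplies sphingosine, was higher in Pkd1KO than in Pkd1KO+ciliaKO mice, by 0.53 ± 0.11 in males (adjusted p = 0.00906) and 0.56 ± 0.12 in females (adjusted p = 0.00934). With Spns3 and Apom it was among the 4 list genes called in males, and females had 8, against 3.77% and 11.7% of all genes. Of the 8, Cers4, a ceramide synthase, was lower by 0.50 ± 0.13 (adjusted p = 0.0235). The median of the list was 0.05 in males and 0.01 in females, against 0.01 and -0.01 over all genes.

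Between Pkd1KO+ciliaKO and noncystic mice 5 list genes were called in males and 3 in females, against 8.89% and 2.54% of all genes, with list medians of 0.01 and -0.01 against 0.01 and 0.01 over all genes. Plpp3, which removes phosphate from extracellular S1P, was higher by 0.36 ± 0.10 in males (adjusted p = 0.0341) and by 0.37 ± 0.09 in females (adjusted p = 0.0437). Acer2, the Golgi ceramidase, was higher by 0.27 ± 0.06 in females (adjusted p = 0.0439). Sgms2 was lower in males by 0.26 ± 0.07 (adjusted p = 0.0255), and Sgpp2 higher by 0.43 ± 0.12 (adjusted p = 0.0303). Each of these calls was lost in some of the fits that left out 1 mouse. Plpp3 was lost in 9 of 17 fits in males and 10 of 13 in females, Acer2 in 9 of 13 in females, Sgpp2 in 8 of 17 in males and Sgms2 in 1, without noncystic male replicate 6, with an adjusted p of up to 0.111 over these fits. Mfsd2b, the S1P exporter of red cells and platelets, at 0.458 to 1.201 CPM, and S1pr4, a receptor of lymphocytes, at 0.0665 to 0.853 CPM, were called by edgeR in no comparison of genotypes within a sex. In the fit of all 3 genotypes Mfsd2b was lower in Pkd1KO than in Pkd1KO+ciliaKO females, at -0.49 (adjusted p = 0.0415).

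The sexes differed in much of the wider list. Of the 47 tested genes 21 were called in noncystic, 26 in Pkd1KO and 12 in Pkd1KO+ciliaKO mice, where 27.4%, 30.6% and 19.4% of all genes were called. Of these, 15, 20 and 8 were higher in males, as were 14.1%, 16.3% and 11.2% of all genes. No list gene was called by edgeR for the interaction of sex and genotype, with 0, 4 and 1 at an unadjusted p under 0.05 in the same 3 comparisons and 0 called by DESeq2 in each.

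After Spns3, the genes whose levels over the 45 mice were most like Spns2 were Ntn4, Hacd1, Lad1 and Defb42, with r of 0.88, 0.87, 0.81 and 0.81 between sex-centred log2 CPM values. Ntn4, a netrin of basement membranes, had means of 68.1, 21.6 and 37.7 CPM in noncystic, Pkd1KO and Pkd1KO+ciliaKO males, and 60.01, 21.4 and 45.4 CPM in females. Cables2 and Pkd2, the latter encoding the channel partner of polycystin-1, were the most opposed, with r of -0.90 and -0.89. These r values hold the genotype difference by which Spns2 was chosen, so the order is a description. With values centred on the mean of each of the 6 groups, r was 0.55, 0.19, 0.43 and 0.24 for Ntn4, Hacd1, Lad1 and Defb42. For Cables2 and Pkd2 it was -0.26 and -0.19. Pkd2 had means of 265, 425 and 289 CPM in males and 274, 477 and 313 CPM in females. Of the members, Sgpl1 was the most opposed to Spns2, with r of -0.64, and the other 7 lay between -0.17 and 0.16. Within groups r for Sgpl1 was 0.06.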

How the data were processed

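RNA bound to EGFP-tagged ribosomes was sequenced for 1 library per mouse. The authors trimmed reads with fastp 0.20.0, aligned them to GRCm38.p6 with STAR 2.7.9 and counted them per gene with featureCounts 2.0.0, and deposited whole-number counts for each sex. The TPM values were made by the authors within each sex from genes that reached 6 counts in 20% or more of its mice, and only protein-coding genes are listed. TPM corrects for gene length and CPM does not. The strand setting of counting is not given in the sources used here.

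Deposited counts of the genes listed in the TPM table of a sex were tested within that sex by the edgeR quasi-likelihood test with TMM factors (edgeR 4.0.16, limma 3.58.1, DESeq2 1.42.0, R 4.3.3), and the sexes were compared in a fit of all 6 groups. P-values were adjusted by Benjamini and Hochberg over all genes tested, 15991 in males, 15968 in females and 15828 in both, at a threshold of 0.05, and measure the spread across mice. Scripts were tested on simulated data. Of 55401 gene identifiers 55141 matched a symbol, and positions were taken from GENCODE vM21 on GRCm38. The 149 pairs of libraries within groups all differed by more than sampling noise, with chi-square per degree of freedom of 53.6 or more.

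The members and lists were chosen with earlier results of these data known. Genes named were the members, Kif3a and Pkd1, 6 fixed list genes, up to 4 list genes called with the smallest p in each comparison, and the 5 genes most like and 2 most opposed to Spns2. The values of 1 list gene are not reported here. The neighbours of Spns2 were added after its values were seen. The alternatives were DESeq2, median-of-ratios size factors, a stricter and no filter on low counts, the replicate number as a block, limma on log2(TPM + 1), limma voom with quality weights, all 3 genotypes in 1 fit, leaving out the libraries that stood apart, and leaving out each mouse.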

Additional observations from a re-analysis of the deposited data

Results flagged for a closer look

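A mouse far from the others of its group was sought for 10 genes, the 9 tested members and Spns3, in each of the 6 groups, and 8 of the 60 sets of mice held one by Dixon's test at its 95% critical value, where chance flags about 1 in 20. S1pr1 was 16.6 CPM in Pkd1KO male replicate 4, next to 3.78 CPM in the nearest mouse of that group, and 4.22 CPM in noncystic female replicate 7, next to 2.76 CPM. Spns3 was 4.14 CPM in noncystic female replicate 6, next to 2.19 CPM, and 0.0538 CPM in Pkd1KO female replicate 8, next to 0.284 CPM. Spns1 was 30.6 CPM in noncystic female replicate 3, next to 23.6 CPM. Sphk2 was low in noncystic male replicate 1, at 52.8 CPM next to 57.2 CPM, and in Pkd1KO female replicate 7, at 35.6 CPM next to 43.9 CPM. S1pr3 was 19.0 CPM in noncystic male replicate 3, a library that lay next to the females on the first principal component, and 11.5 CPM in the nearest mouse. Spns2 held no such mouse in any group.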

How the results depend on the processing

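No called value changed direction under an alternative, and values that missed the threshold did. Among them, S1pr1 in male Pkd1KO against Pkd1KO+ciliaKO mice went from 0.63 to -0.17 in DESeq2, -0.05 in voom and -0.07 without the 4 male libraries, and Spns2 in male Pkd1KO+ciliaKO against noncystic mice from -0.10 to 0.04 in voom. Of the members other than Spns2, the number called in male Pkd1KO against Pkd1KO+ciliaKO mice, 1, became 3 in DESeq2 and in voom, 2 in the fit of 3 genotypes and 0 with the replicate number as a block and on log2(TPM + 1). Against noncystic males the 1 call became 0 with the block and on log2(TPM + 1). In female Pkd1KO against Pkd1KO+ciliaKO mice, and in female Pkd1KO+ciliaKO against noncystic mice, 0 became 1 in DESeq2, voom and on log2(TPM + 1). Of the wider list, the 5 calls of male Pkd1KO against noncystic mice became 3 without the 4 male libraries and 2 with the block and on log2(TPM + 1), and the 4 against Pkd1KO+ciliaKO males became 2 with the block. The 5 calls of male Pkd1KO+ciliaKO against noncystic mice became 9 without the 4 male libraries, 10 in voom and 3 on log2(TPM + 1). The 8 calls of female Pkd1KO against Pkd1KO+ciliaKO mice became 5 without the 2 female libraries and 4 with the block, and the 3 of female Pkd1KO+ciliaKO against noncystic mice became 5 in DESeq2, 7 on log2(TPM + 1) and 1 with the block and in the fit of 3 genotypes. The 2 members called between sexes in Pkd1KO+ciliaKO mice became 1 with no filter on low counts. The share of all genes called in each alternative, or without each mouse, is not given here. A change in these counts therefore cannot be told apart from a change over all genes. Its cause was not tested. Leaving out each mouse gave 0 to 2 members in male Pkd1KO against Pkd1KO+ciliaKO, 1 to 2 in female Pkd1KO against noncystic, and 0 to 1 in both other female comparisons. It gave 1 to 2 members between sexes in Pkd1KO+ciliaKO mice. For the list it gave 1 to 4 in male Pkd1KO against noncystic, 2 to 9 in male Pkd1KO+ciliaKO against noncystic, 2 to 4 in female Pkd1KO against noncystic, 4 to 9 in female Pkd1KO against Pkd1KO+ciliaKO, 0 to 3 in female Pkd1KO+ciliaKO against noncystic mice, and for Spns2 in that comparison -0.72 to -0.52. Leaving out mice from the sex comparisons was chosen after seeing the data. The replicate numbers did not pair the mice, since in none of 9 comparisons did every same-numbered pair correlate above 0.1. With the block the calls of Spns1 in male Pkd1KO against Pkd1KO+ciliaKO mice (adjusted p = 0.123), of Sgpl1 in male Pkd1KO against noncystic mice (adjusted p = 0.0649) and of Apom in female Pkd1KO+ciliaKO against noncystic mice (adjusted p = 0.0838) were lost, and Sphk1 passed between sexes in noncystic mice (adjusted p = 0.0481). Limma on log2(TPM + 1) was not run between sexes, whose TPM tables were normalized separately. S1pr5 and the lowest levels of Spns3 are limited by depth.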
